A study of Mus musculus with 2 samples.

Results

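Collagen chains outside the vitreous set were followed across the cells of the mouse ciliary body and the neighbouring tissue carried along in dissection. The members were all genes whose symbol is Col, a number, a and a number, with at least 20 unique molecular identifiers (UMIs, 1 for each captured transcript) over both libraries. Col2a1, Col5a1, Col5a2, Col9a1, Col9a2, Col9a3, Col11a1, Col11a2 and Col18a1 were left out by name. Of 44 such symbols 9 were left out by name and 0 fell under the minimum, which left 35 members among 33456 genes, with 244786 UMIs in all. The members just inside the minimum were Col22a1 with 22 UMIs, Col28a1 with 24 and Col6a4 with 25. By collagen class, 6 were fibrillar chains, 6 basement membrane (type IV) chains, 6 beaded filament (type VI) chains, 6 fibril-associated chains, 3 short chain network chains (types VIII and X) and 4 transmembrane chains. Col15a1 was the 1 multiplexin, Col7a1 the 1 anchoring fibril chain, and Col26a1 and Col28a1 belonged to none of these classes.

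There were 2 single-cell libraries, both of untreated mice aged 35 postnatal days, of the C57BL/6 strain and wild type. The tissue, labelled ciliary epithelium, was dissected fresh, and the fragments were combined and digested with collagenases and DNase before droplet capture. Each library was 1 pool: 3 sets of eyes for library 1, and for library 2 the labels give 3 in one place and 4 in another. The 2 libraries are the replicates, so n = 2 throughout, and each value below is given for library 1 and then for library 2.

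A collagen molecule is a triple helix of 3 chains, and in some types the chains come from different genes. Fibrillar collagens, with type I (Col1a1, Col1a2) and type III (Col3a1) as the main ones of soft tissue, form the banded fibrils of sclera, cornea and ciliary stroma, and fibril-associated types such as XII, XIV and XVI sit on their surface. Type IV collagen forms the sheet-like network of basement membranes: a ubiquitous form uses Col4a1 and Col4a2, and restricted forms use Col4a3, Col4a4 and Col4a5, or Col4a5 and Col4a6. In the eye, inherited faults in the restricted type IV chains cause Alport syndrome with lens and retinal signs, type VIII collagen is known from the Descemet membrane of the cornea, and type VI forms fine filaments beside basement membranes. In the ciliary body a pigmented and a non-pigmented epithelial layer face each other, and each lies on a basement membrane, with vascular stroma beneath the pigmented layer.

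After filtering, 3865 and 5466 cells remained of 4764 and 6220 barcodes, with medians of 4128 and 2968 UMIs per cell. The libraries shared 11 barcodes, 8 of them among the cells kept. Clustering, which used no collagen gene, gave 27 clusters, named from marker lists as like a cell type, a sense that holds for every name below. Cells like both layers of the labelled tissue were present: the non-pigmented layer held 147 and 160 cells and the pigmented layer 132 and 220. Of the listed markers, 12 of 12 of the first and 8 of 10 of the other marked their own cluster. Most cells were of other types. The larger or later-used classes included 954 and 576 fibroblasts, 215 and 224 retinal pigment epithelium cells and 146 and 96 endothelial cells. They also included 42 and 32 Schwann cells and 382 and 1754 rods. Which of the stromal, vascular and nerve cells came from the ciliary body itself was not tested. 1 cluster held markers of both mast cells and T cells, so no T cell class was defined. Levels are given as CPM, the UMIs of a gene per 1000000 UMIs of a class in a library. The pigmented cluster was also marked by 3 of 9 smooth muscle markers (Myh11, Acta2 and Tagln), with Myh11 among its leading genes. The 9 summed to 1168 and 922 CPM in it, against 341 and 108 in the non-pigmented layer and 8728 and 12034 in the smooth muscle class. Whether all cells of the pigmented cluster came from the ciliary body was not tested. The pigmented layer, or pigmented ciliary layer, means this cluster below. Rods, photoreceptors that lay down no interstitial matrix, served as the background: Col1a1 stood at 30.4 and 110 CPM in them, and at 26.4 and 71.0 without the rod richest in it.

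**Figure D1:**
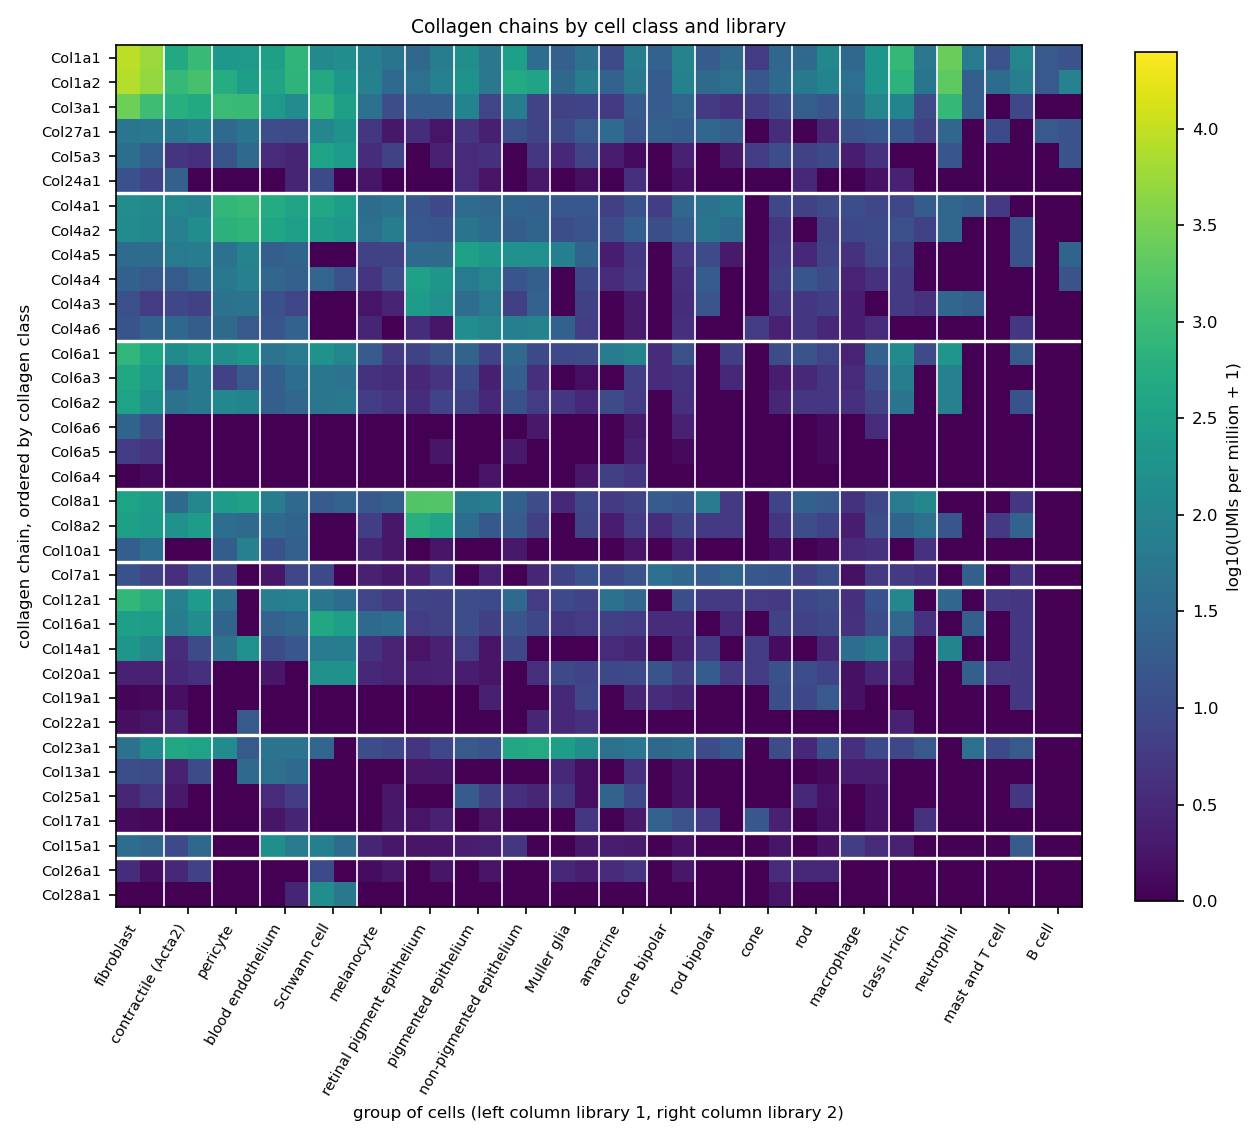
Level of each of the 35 chains (rows, ordered by collagen class) in 20 cell classes (columns, library 1 on the left and library 2 on the right of each pair), as log10 of CPM plus 1. Col1a1, Col1a2, Col3a1 and Col6a1 to Col6a3 are brightest in fibroblasts, Col4a3, Col4a4 and Col8a1 in retinal pigment epithelium, and Col28a1 and Col20a1 in Schwann cells.

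Of the 35 chains, 28 had their highest class in common between the libraries. That class was the fibroblast for 9 (Col1a1, Col1a2, Col3a1, Col12a1, Col6a1, Col6a2, Col6a3, Col6a5 and Col6a6), the Schwann cell for 5 (Col5a3, Col16a1, Col20a1, Col27a1 and Col28a1) and the retinal pigment epithelium for 4 (Col4a3, Col4a4, Col8a1 and Col8a2). It was the pericyte, pigmented epithelium, cone bipolar cell and amacrine cell for 2 each. The endothelium was highest for Col15a1 and the rod for Col19a1, and the 7 chains without a common class were Col10a1, Col13a1, Col14a1, Col22a1, Col23a1, Col24a1 and Col26a1. The plot of levels by class shows that the order followed the collagen classes only in part: type IV chains had 3 different highest classes, and in the short chain network both type VIII chains were highest in retinal pigment epithelium while Col10a1 was highest in fibroblasts of library 1 and, on 5 UMIs, in pericytes of library 2.

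Fibroblasts held the interstitial chains. Col1a1 (chromosome 11, 94936224-94953042, plus strand, GRCm38 as are all positions here), a chain of type I collagen, reached 9096 and 5440 CPM in fibroblasts, against 237 and 48.2 in the ciliary epithelium, both layers summed. The groups did not overlap, and the epithelial value in library 1 was well above that in library 2. The fitted log2 difference was 5.98 ± 0.85 (SE), with an adjusted p of 8.1e-07 by edgeR's quasi-likelihood test with Benjamini-Hochberg adjustment over all genes tested. Col3a1 (chromosome 1, 45311538-45349706), which alone makes up type III collagen, stood at 2726 and 1087 in fibroblasts and 83.2 and 7.12 in epithelium, a difference of 5.76 ± 0.62 (adjusted p = 5.6e-09). Col12a1 (chromosome 9, 79598991-79718831), a fibril-associated chain that bridges type I fibrils, stood at 832 and 558 against 21.8 and 7.12 (5.93 ± 0.52, adjusted p = 9.7e-11). Col14a1 (chromosome 15, 55307750-55520803), a fibril-associated chain of dense connective tissue, stood at 214 and 126 against 6.53 and 0.419 (5.95 ± 0.49, adjusted p = 3.2e-11). For all 4 chains both fibroblast values lay above both epithelial values. The type VI chain Col6a3, which carries most of the filament's globular domains, was at 417 and 258 in fibroblasts and 14.7 and 2.1 in epithelium (5.78 ± 0.55, adjusted p = 5.4e-10). Col10a1, a short chain best known from hypertrophic cartilage, was at 19.3 and 38 in fibroblasts and at 0.544 and 0 in epithelium, where it rested on 1 UMI. Its fitted difference of 7.06 ± 0.72 (adjusted p = 1.4e-08) was the largest of these and the one most dependent on a near-empty group.

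Over the whole comparison, fibroblasts against the mean of the 2 epithelial layers, 28 of the 35 chains were tested. Calls needed an adjusted p under 0.05 and a log2 difference of at least 1. Of the chains tested, 19 were higher in fibroblasts and 3 lower, beside 14.5% of all 6976 genes tested called higher and 9.32% called lower. The median log2 difference was 3.80 over the chains and 0.08 over all genes. The chains called higher were all 5 tested fibrillar chains, all 3 tested type VI chains, all 3 short chain network chains, 3 of 4 fibril-associated chains, Col15a1, Col7a1, the transmembrane chain Col13a1, and Col4a1 and Col4a2. Col13a1 had 0 UMIs in the epithelium and 10.6 and 9.11 CPM in fibroblasts, which is at least 14.1-fold higher when the empty group is set at 3 UMIs over both libraries. The 7 chains not tested for want of counts were Col19a1, Col22a1, Col24a1, Col26a1, Col6a4, Col6a5 and Col6a6. All 22 calls held the same direction in both libraries, and each chain with at least 50 UMIs in the higher group of both libraries kept its call under every alternative processing that gave a test.

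**Figure D2:**
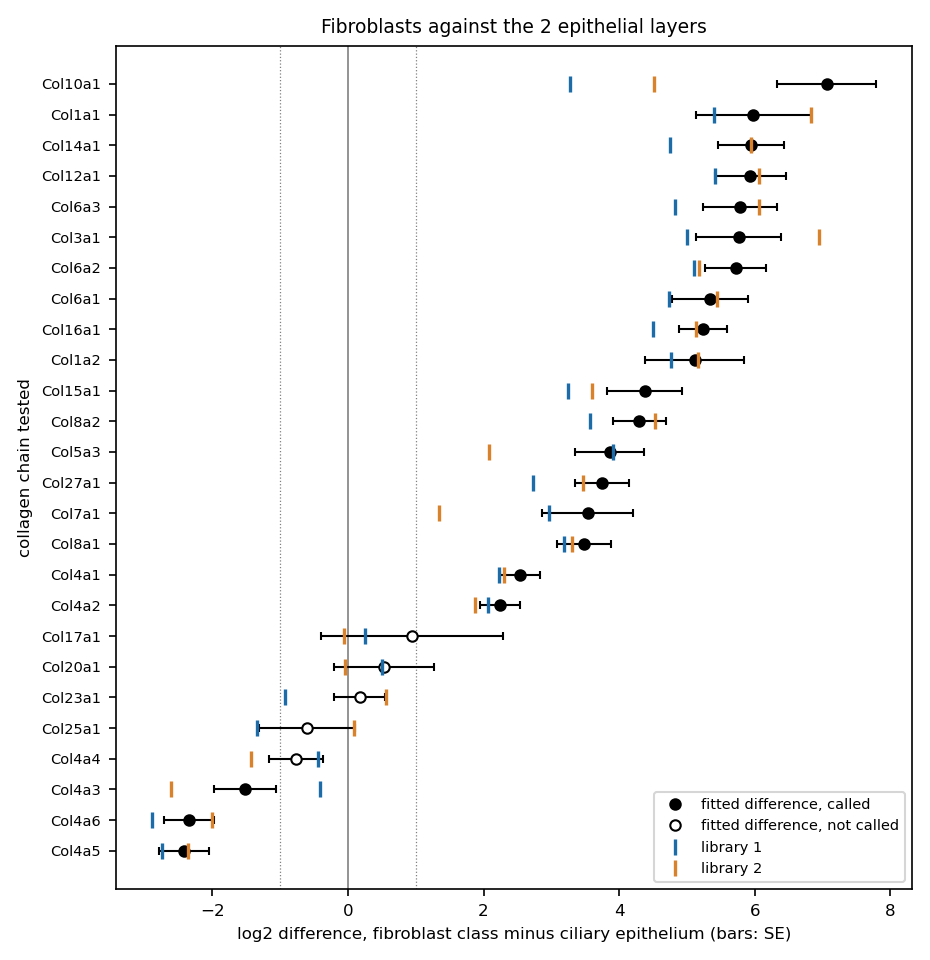
Fitted log2 difference between fibroblasts and the ciliary epithelium for each tested chain with UMIs in both groups (points, bars are SE; filled points were called), with the difference in library 1 and library 2 as ticks, computed with 2 UMIs added to limit the pull of low counts. Col1a1, Col3a1, Col12a1 and Col6a3 lie at the right, and Col4a5, Col4a6 and Col4a3 at the left.

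The epithelium did hold 1 fibrillar chain above the background. Col1a2 stood at 497 and 367 CPM in the non-pigmented layer and 183 and 53.7 in the pigmented layer, against 58.8 and 94.5 in rods. Both non-pigmented values were above both rod values, while the pigmented values straddled them. Without the cell richest in Col1a2 the non-pigmented layer still held 346 and 322. Its partner chain Col1a1 was at 309 and 38.6 there, and at 98.3 and 15.9 without the richest cell, so in library 2 Col1a1 was under its level in rods while Col1a2 was above. Markers of fibroblasts were present in that layer at low levels: the 10 summed to 959 and 365 CPM, against 33041 and 20953 in fibroblasts, with 0 and 3 of them at 0. Their part in the Col1a2 level was not tested.

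The 3 chains lower in fibroblasts were all type IV. The 6 type IV genes lie as 3 head-to-head pairs: Col4a1 and Col4a2 on chromosome 8, Col4a3 and Col4a4 on chromosome 1, and Col4a5 and Col4a6 on the X chromosome. In each pair the 2 genes run outward from neighbouring start sites on opposite strands. Per the annotation (GENCODE vM21, GRCm38), the starts of Col4a1 and Col4a2 were 21 bases apart and overlapped, 71 bases separated Col4a4 from Col4a3, and 1308 separated Col4a6 from Col4a5. The stretch between or before the starts is shown for the restricted pairs, because the levels below followed the pairs. The sequences are from RefSeq (GRCm38.p6), written 5′ to 3′ on the gene's own strand and ending at the annotated start. Capitals mark a match on either strand to the TATA box letters TATAAA, the CCAAT box or the GC box letters GGGCGG, and CCGCCC is the GC box read from the other strand. The Col4a4 stretch (chr1:82586850-82586920, minus strand) is the whole gap to Col4a3, and the stretches of Col4a6 (chrX:141474077-141474176, minus strand) and Col4a5 (chrX:141475285-141475384, plus strand) are the 100 bases before each start.
Col4a4: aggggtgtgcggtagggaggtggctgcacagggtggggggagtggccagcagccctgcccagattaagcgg
Col4a6: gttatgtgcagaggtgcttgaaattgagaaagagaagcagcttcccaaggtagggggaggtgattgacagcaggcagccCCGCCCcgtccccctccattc
Col4a5: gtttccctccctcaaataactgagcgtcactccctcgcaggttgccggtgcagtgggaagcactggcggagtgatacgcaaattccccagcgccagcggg
The shared gap of Col4a3 and Col4a4 and the Col4a5 stretch held none of the 3 motifs, and the Col4a6 stretch held GGGCGG once. In the 250 bases before the start, 16 of the 29 members found in the RefSeq table held the GC box, 10 the CCAAT box and 4 the TATA box, beside 32.7%, 33.8% and 12.4% of all 32851 promoters.

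Col4a5 and Col4a6 were highest in the ciliary epithelium. Col4a5 stood at 326 and 224 CPM in the pigmented layer and 170 and 158 in the non-pigmented layer, and Col4a6 at 140 and 98.1 and at 79.5 and 90.2. Markers of pigmented epithelium summed to 9766 and 8130 CPM in the non-pigmented layer, against 30721 and 28001 in the pigmented layer. Their part in the non-pigmented levels of Col4a5 and Col4a6 was not tested. In the retinal pigment epithelium, the neighbouring pigmented layer behind the retina, Col4a5 was at 31.0 and 32.2 and Col4a6 at 2.82 and 0.75. Against fibroblasts (33.7 and 35.4 for Col4a5, 12.7 and 22.1 for Col4a6) the ciliary epithelium was higher in both libraries. The log2 difference of fibroblasts from epithelium was -2.42 ± 0.37 for Col4a5 (adjusted p = 3.2e-06) and -2.34 ± 0.37 for Col4a6 (adjusted p = 1.1e-05).

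Col4a3 and Col4a4 had another order. Both were highest in the retinal pigment epithelium, at 257 and 169 CPM for Col4a3 and 333 and 216 for Col4a4. The pigmented ciliary layer held 36.6 and 66.8 of Col4a3 and 65.9 and 101 of Col4a4, and pericytes held 44.2 and 48.7 of Col4a3 on 7 and 3 UMIs. The non-pigmented layer held 5.89 and 22.8 of Col4a3 and 13.7 and 20.8 of Col4a4, and rods 4.06 and 5.51 and 14.2 and 9.69. For both chains the 3 epithelia did not overlap in order: each library had retinal pigment epithelium above pigmented above non-pigmented. Col4a4 made up 91.5% and 87.0% of the UMIs of Col4a4 and Col4a5 together in the retinal pigment epithelium, with exact 95% binomial intervals of 88.7 to 93.7% and 82.9 to 90.4%. In the pigmented ciliary layer the share was 16.8% and 31.0%, and in the non-pigmented layer 7.49% and 11.7%. The intervals cover counting error only. All 3 chains of the known Col4a3, Col4a4 and Col4a5 network stood above rods in both libraries in the retinal pigment epithelium and in the pigmented ciliary layer. In the non-pigmented layer Col4a4 overlapped with rods.

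The ubiquitous pair was highest in vessel cells. Col4a1 stood at 834 and 973 CPM in pericytes, 509 and 372 in endothelium and 442 and 288 in Schwann cells, then 143 and 128 in fibroblasts. Col4a2 had the same order, at 670 and 762, 396 and 302, 283 and 219, and 133 and 114. In the epithelia both were low, with Col4a1 at 33.0 and 27.6 in the pigmented layer, 25.5 and 21.8 in the non-pigmented layer and 14.1 and 8.25 in the retinal pigment epithelium. The last of these did not stand apart from rods, at 6.09 and 9.25.

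**Figure D3:**
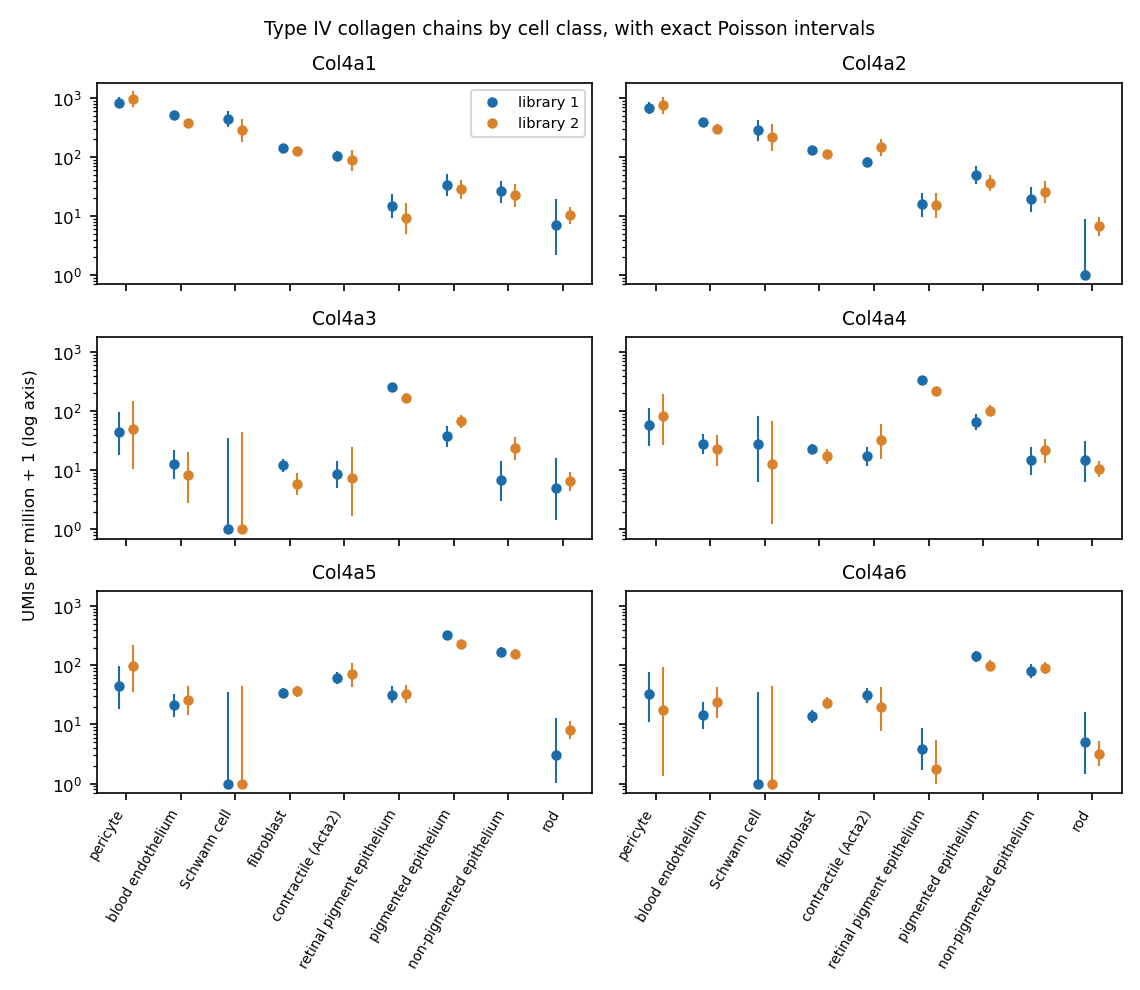
Level of the 6 type IV chains in 9 cell classes, as CPM plus 1 on a log axis, with exact 95% Poisson intervals that cover counting error only. Each row is a head-to-head gene pair: the top row peaks in pericytes, the middle row in retinal pigment epithelium and the bottom row in the 2 ciliary layers.

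Across 50 class or sub-cluster sums, which share their 2 libraries and differ in depth, the pairs varied together. Pearson's r of the log levels was 0.93 for Col4a1 and Col4a2, 0.89 for Col4a5 and Col4a6 and 0.70 for Col4a3 and Col4a4. Between pairs it was 0.20 for Col4a2 and Col4a3, 0.30 for Col4a1 and Col4a5, 0.52 for Col4a3 and Col4a5 and 0.64 for Col4a4 and Col4a5, the last near the value for Col4a3 and Col4a4. Type I and type VI partners reached 0.97 for Col1a1 and Col1a2 and 0.96 for Col6a1 and Col6a2. The chain most like each of Col1a1, Col4a1, Col4a3, Col4a5, Col6a1 and Col8a1 was its known partner.

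The 2 ciliary layers were also compared with each other. Of 28 tested chains, 1 was higher in the non-pigmented layer, 3 were lower and 24 were not called. All genes tested had 3.38% called higher and 2.06% lower. The chain that rose was Col23a1 (chromosome 11, 51289920-51583918, plus strand), a transmembrane collagen with a short ectodomain that can be shed. It stood at 415 and 485 CPM in the non-pigmented layer and 15.9 and 12.3 in the pigmented layer, with no overlap, and the log2 difference was 5.07 ± 0.53 (adjusted p = 4e-08). No single cell carried it, since without the cell richest in Col23a1 the non-pigmented layer held 402 and 483. The same chain was at 283 and 147 in Muller glia, the glia of the retina, at 2.03 and 11.9 in rods and at 3.52 and 7.5 in retinal pigment epithelium. Markers of the non-pigmented layer summed to 3811 and 2477 CPM in Muller glia, against 6089 and 6365 in that layer. Their part in the Muller level was not tested. Col4a4 was lower in the non-pigmented layer, with a log2 difference of -2.24 ± 0.49 (adjusted p = 0.0031). Col8a1 and Col4a3 were also called lower, on fewer UMIs. With DESeq2 0 chains were called lower, with 4 at an unadjusted p under 0.05. Markers of retinal pigment epithelium summed to 429 and 1635 CPM in the non-pigmented layer and 1008 and 2015 in the pigmented layer, against 50305 and 61551 in that epithelium. All 3 chains that were lower are highest there, and the part of such RNA in the differences was not tested. The pigmented epithelium markers, at 30721 and 28001 CPM in the pigmented layer, summed to 9766 and 8130 in the non-pigmented layer. Their part in the comparison of the layers was not tested either.

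Endothelium was next compared with fibroblasts. The endothelial cluster was also marked by 3 of 7 markers of lymphatic or Schlemm canal endothelium, with Ccl21a among its leading genes. Which kind of endothelial cell held the chains below was not tested. Of 28 tested chains, 3 were higher in endothelium and 13 lower, beside 6.77% and 7.73% of all genes tested, and the median log2 difference was -1.76 over the chains and -0.07 over all genes. The 3 higher were Col4a1 (1.42 ± 0.32, adjusted p = 0.0014), Col4a2 (1.22 ± 0.33, adjusted p = 0.0076) and Col15a1, a multiplexin of vascular basement membrane zones. Col15a1 stood at 153 and 63.0 in endothelium and 37.2 and 26.8 in fibroblasts, and it was highest in endothelium in both libraries. All 5 tested fibrillar chains were lower, together with all 3 tested type VI chains, 3 of 4 fibril-associated chains and both type VIII chains. Col14a1 fell by 4.22 ± 0.55 on the log2 scale (adjusted p = 7.1e-07), from 214 and 126 in fibroblasts to 9.29 and 14.4. Col1a1 fell by 4.12 ± 1.05 (adjusted p = 0.0046), yet 207 of its 375 UMIs in library 1 and 372 of 424 in library 2 lay in a single endothelial cell each. Without those cells Col1a1 was at 143 and 96.1 in endothelium. The 10 fibroblast markers summed to 1759 and 2191 CPM in the endothelial class, and their part in its type I and type III levels was not tested. Col13a1, a transmembrane chain, was at 41.4 and 30.6 in endothelium against 10.6 and 9.11 in fibroblasts, a difference that was not called.

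The class named for pericytes, the contractile cells wrapped around capillaries, was small, with 34 and 21 cells. It was also marked by 5 of 9 smooth muscle markers. The 9 summed to 18168 and 6147 CPM in it, beside 14307 and 14273 for the pericyte markers. Of its cells 87.3% lay in a stromal sub-cluster led by Myh11 and Acta2 (s8 below). The part of vascular smooth muscle cells in its levels was not tested. Against fibroblasts 2 chains were higher and 8 lower, beside 2.06% and 3.5% of all genes tested. Those 2 were Col4a1, at a log2 difference of 2.20 ± 0.34 (adjusted p = 4.8e-05), and Col4a2, which had 47 UMIs in the pericytes of library 2. The pericyte values of both lay above every fibroblast and endothelial value. Endothelial markers were low in the pericyte class: the 8 summed to 322 and 519 CPM against 11272 and 7005 in endothelium, with 3 and 4 of them at 0. Fibrillar RNA was not absent from pericytes, in which Col3a1 stood at 998 and 957, and at 865 and 791 without the richest cell. Col1a1 fell by 5.52 ± 1.18 (adjusted p = 0.0023) and Col6a3 by 5.69 ± 1.10 (adjusted p = 0.00086).

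A larger class with contractile genes (Tagln, Acta2) took its name from smooth muscle markers, with 357 and 66 cells, but 343 of these 423 cells lay in a stromal sub-cluster led by Lypd1 and Chodl (s0 below). The pericyte markers summed to 118 and 327 CPM in it, against 14307 and 14273 in pericytes. The fibroblast markers summed to 8458 and 9877 CPM in it, beside 8728 and 12034 for its own smooth muscle markers, and their part in the differences below was not tested. Against fibroblasts, 1 chain was higher and 11 lower, beside 1.66% and 3.44% of all genes tested. The chain that rose was Col23a1, at 434 and 352 in the contractile class and 43.3 and 120 in fibroblasts (2.07 ± 0.42, adjusted p = 0.0019). The fibroblast class itself held 94 cells of s0 in library 2 and 4 in library 1. The lower ones were Col1a1, Col1a2, Col5a3, Col6a1, Col6a2, Col6a3, Col8a1, Col10a1, Col12a1, Col14a1 and Col16a1, and apart from Col16a1 (-1.90 ± 0.36, adjusted p = 0.0011) each of these calls was lost under at least 1 alternative. Under 3 alternative settings the class of this name held the Myh11+ vessel cells instead, and the Col23a1 difference turned negative, between -1.72 and -1.21. Its level in the s0 cells themselves is given with the sub-clusters below.

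Schwann cells, which wrap peripheral axons and lay down a basement membrane around them, were the highest class for 5 chains. Of 28 tested chains 3 were higher than in fibroblasts and 11 lower, beside 2.34% and 5.16% of all genes tested. Col28a1 (chromosome 6, 7997808-8192617, minus strand), a beaded chain known from peripheral nerve, stood at 141 and 57.6 CPM on 16 and 5 UMIs, and at 0 UMIs in fibroblasts of both libraries. That is at least 346-fold higher with the fibroblasts set at 3 UMIs, and those 21 UMIs were nearly all of the 24 in the series. Col28a1 therefore met the minimum of 20 UMIs only through Schwann cells. Its call, counted among the 3, is not independent of how members were chosen. Col20a1 (chromosome 2, 180986535-181018363), a fibril-associated chain, was at 168 and 173 in Schwann cells and 1.49 and 1.56 in fibroblasts, and Col5a3, a minor fibrillar chain of type V, at 362 and 254 against 38.7 and 20.1. For each of the 3 both Schwann values lay above every value in the other classes. Without the richest cell they were 120 and 35.4 for Col28a1, 125 and 128 for Col20a1, and 312 and 191 for Col5a3. Each had fewer than 50 UMIs in the Schwann class of at least 1 library, so no fold change is given for Col20a1 and Col5a3. Col16a1 and Col27a1 were also highest in Schwann cells, at 433 and 300 and at 106 and 173, against 299 and 297 and 53.0 and 56.2 in fibroblasts. Neither was called.

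Among the chains lower in Schwann cells, Col1a1 fell by 6.33 ± 1.26 on the log2 scale (adjusted p = 0.00068), to 115 and 150 CPM, and Col12a1 by 4.45 ± 0.81 (adjusted p = 0.00024), to 53.0 and 34.6. Col8a2 had 0 UMIs in both libraries, where 3 UMIs would be 26.5 and 34.6 CPM, and was at least 19.7-fold lower than in fibroblasts. With 113150 and 86758 UMIs the class was shallow, and the calls for Col3a1, Col4a5, Col10a1 and Col6a1 were lost under at least 3 of the alternatives. With DESeq2 5 chains were lower in place of 11. The restricted type IV chains Col4a3, Col4a5 and Col4a6 also had 0 UMIs in Schwann cells.

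The stroma, meaning the fibroblast, contractile and pericyte classes, was divided into 9 sub-clusters without use of any collagen gene. They are named by number and leading genes: s0 (Lypd1, Chodl), s1 (Igfbp2, Cldn10), s2 (Lamc3, Inmt), s3 (Rgs5, Myoc), s4 (Mmp3, Dpt), s5 (Chil1, Chad), s6 (Iqcj, Ptn), s7 (Kera, Prg4) and s8 (Myh11, Acta2). Of these, s4 was marked by 5 of 10 fibroblast markers and 4 of 10 of corneal or scleral stroma, s5 by 5 of 10 of corneal or scleral stroma and 4 of 10 of trabecular meshwork, s2 and s3 by trabecular meshwork markers, s1 and s7 by markers of corneal or scleral stroma, and s8 by mural markers. Each was tested against the mean of the log levels of the other 7, without s7, which had under 20 cells in library 2. The level of the other stroma given beside a result is their pooled level, in which s4 and s5 weigh most, so it need not match the fold change.

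**Figure D4:**
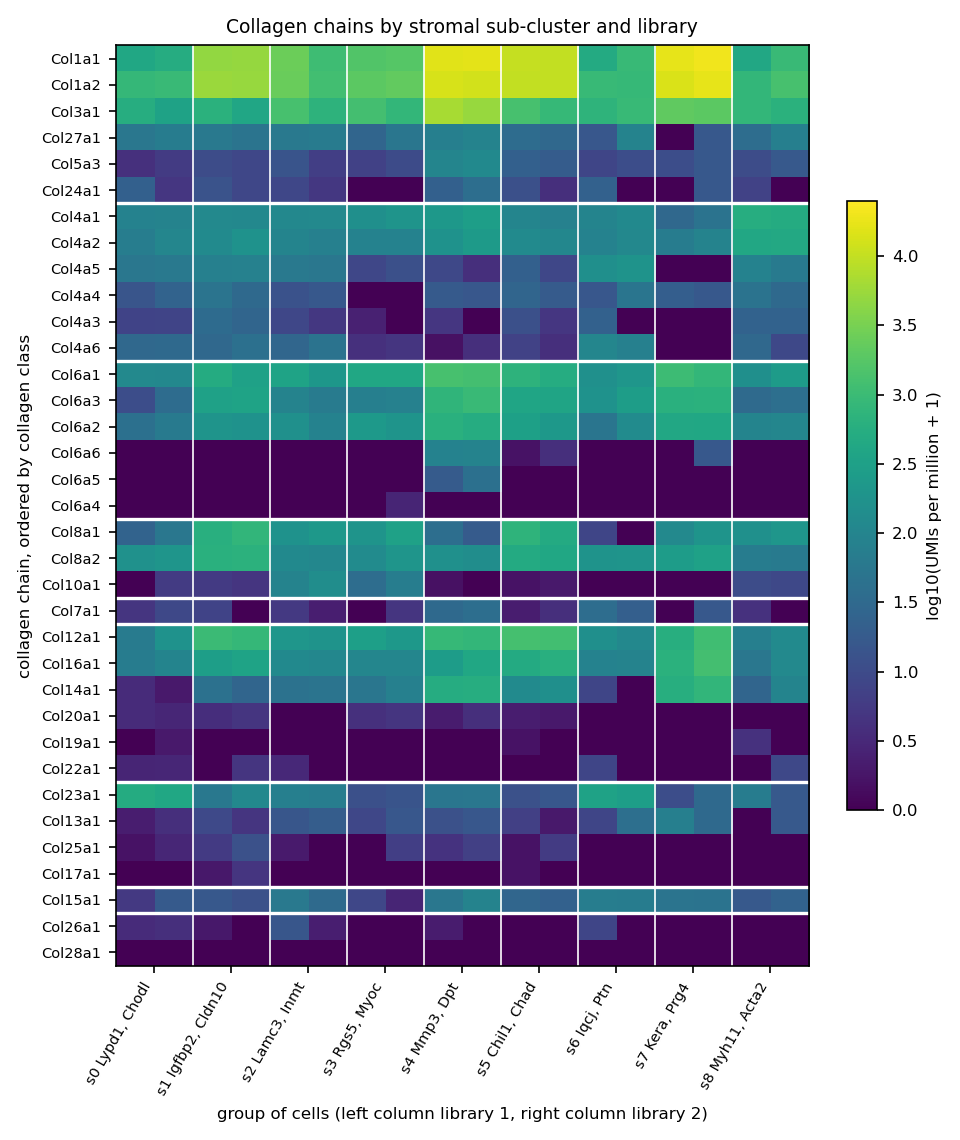
Level of the 35 chains in the 9 stromal sub-clusters (columns, library 1 left and library 2 right of each pair), as log10 of CPM plus 1. Type I chains are brightest in s4, s5 and s7, Col6a5 and Col6a6 are seen almost only in s4, Col10a1 in s2 and s3, and Col23a1 in s0 and s6.

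Among the sub-clusters tested, s4, with 275 and 56 cells, held the highest levels of the type I and type III chains. Of 31 chains tested, 15 were higher there and 2 lower, beside 5.53% and 1.65% of all 6909 genes tested, and the median log2 difference was 1.35 over the chains and 0.10 over all genes. Col1a1 stood at 16164 and 16756 CPM in s4 and 4075 and 3705 in the other stroma (3.46 ± 0.50, adjusted p = 2.1e-06). Col3a1 stood at 6545 and 5168 against 949 and 651 (3.1 ± 0.37, adjusted p = 3.9e-08), and Col14a1 at 519 and 551 against 52.4 and 67.4 (4.53 ± 0.28, adjusted p = 1.5e-15). The libraries were close to each other for all 3, and both values in s4 lay above the pooled level of the other stroma. That pool leaves out s7, which held 17062 and 20496 of Col1a1 and 569 and 772 of Col14a1, above s4. The 3 main type VI chains rose: Col6a3 by 3.15 ± 0.31 (adjusted p = 5e-10) and Col6a1 by 2.32 ± 0.35 (adjusted p = 4.9e-06), and Col6a2 stood at 615 and 525 against 175 and 137 and was called as well. Col1a2 rose by 2.79 ± 0.45 (adjusted p = 1.4e-05).

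Among the stromal sub-clusters, 2 further type VI genes were seen almost only in s4. Col6a6, Col6a5 and Col6a4 lie in a row on chromosome 9, on the same strand. Col6a6 (105687809-105828160), an alternative partner of Col6a1 and Col6a2, stood at 87.0 and 93.3 CPM in s4 on 154 and 32 UMIs, and at 0.159 and 0.787 in the other stroma. Col6a5 (105856078-105960643) stood at 17.5 and 40.8 on 31 and 14 UMIs, with 0 UMIs in the other sub-clusters tested, at least 71.7-fold higher with these set at 3 UMIs. Both were called. Col6a5 had 54 UMIs in the series and met the UMI minimum for members only through s4. Its call, counted among the chains higher in s4, is therefore not independent of how members were chosen. Col6a4 was at 0 in s4 and was seen mainly in amacrine cells of the retina, at 5.83 and 4.04 on 5 and 11 UMIs. With 25 UMIs in the series, Col6a4 met that minimum only through amacrine cells. Col24a1, a fibrillar chain, was called higher in s4 as well, at 21.5 and 37.9, but in library 1 s0, at 21.0, and s6, at 22.0 on 3 UMIs, reached its level. Col5a3 was at 97.7 and 119 in s4 against 11 and 9.97, well under its level in Schwann cells, and Col7a1 at 30.5 and 37.9 against 3.97 and 4.2. The 9 Schwann markers summed to 95.5 and 96.2 CPM in s4. The chains lower in s4 were again Col4a5 (-2.60 ± 0.52, adjusted p = 0.00044) and Col4a6 (-4.06 ± 0.80, adjusted p = 0.00043), which in s4 were at 7.91 and 2.91 and at 0.565 and 2.91.

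Of the tested sub-clusters, s5 was the other one rich in type I RNA, with 10 chains higher and 1 lower, beside 4.14% and 0.97% of all genes tested. Col1a1 was at 10243 and 10004 CPM there (2.80 ± 0.52, adjusted p = 0.0002), Col12a1 at 1256 and 1153 (2.55 ± 0.31, adjusted p = 8.6e-08) and Col16a1 at 497 and 595 (2.31 ± 0.20, adjusted p = 3.7e-11). It differed from s4 in type VIII: Col8a1 was at 721 and 493 in s5 (3.12 ± 0.30, adjusted p = 5.7e-10) and at 37.3 and 17.5 in s4. Sub-cluster s1 shared that, with Col8a1 at 602 and 785 (3.16 ± 0.31, adjusted p = 2.5e-09) and Col8a2 at 609 and 660 (2.10 ± 0.26, adjusted p = 4.2e-07). In s1, 9 chains were higher and 0 lower by edgeR, beside 2.45% and 0.289% of all genes tested, with 0 lower also by DESeq2 and at an unadjusted p under 0.05. The higher ones included all 4 restricted type IV chains, each on fewer than 50 UMIs in at least 1 library. Col4a3 was at 33.7 and 26.5 in s1, Col4a4 at 48.6 and 30.3, Col4a5 at 81.4 and 83.4 and Col4a6 at 29.9 and 41.7. Each of these sub-clusters was tested against the mean of the others, and s5 against s4 or s1 directly was not tested. Sub-cluster s3, in which 2 chains were higher and 4 lower (2.39% and 0.811% of all genes tested), also had Col8a1 called higher, a call lost with DESeq2 and without the library term. In s6, with 30 and 21 cells, Col8a1 was nearly absent at 7.32 and 0, on 1 UMI, and fell by 5.64 ± 0.97 (adjusted p = 0.00016). Outside the stroma, the retinal pigment epithelium held 1599 and 1649 of Col8a1, above every sub-cluster. Its Col8a2, at 581 and 386, lay under that of s1 in both libraries.

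Col10a1 marked s2 and s3. It stood at 92.6 and 142 CPM in s2 and 36.7 and 72.1 in s3, and at 9.74 and 7.82 or less in each other sub-cluster. All values of s2 and s3 lay above those of the rest. Without the richest cell s3 held 24.8 and 37.7, and s2 76.9 and 125. The log2 difference for s2 was 5.60 ± 0.39 (adjusted p = 7.7e-12). In s2, 2 chains were higher and 0 lower by edgeR, beside 2.69% and 0.0579% of all genes tested. Besides Col10a1 the chain higher was Col4a6, at 26.9 and 46.5 on 25 and 34 UMIs. At an unadjusted p under 0.05, edgeR had 2 chains lower and DESeq2 5, of which 0 were called. Col10a1 (chromosome 10, 34389981-34397085, plus strand) lies over the gene Nt5dc1 on the other strand, and whether counting used strand is not given in the sources used here. Nt5dc1 itself was at 12.9 and 9.57 in s2, 12.2 and 11.1 in s3 and 22.7 and 15.6 in s8, and so was not highest where Col10a1 was. Upstream sequences are shown for Col10a1 and for the type VIII genes, the other members of the short chain class, since Col10a1 differed from the type VIII genes in where it was high. They are the 100 bases before each start, from RefSeq (GRCm38.p6) as above: Col10a1 at chr10:34389881-34389980 (plus strand), Col8a1 at chr16:57754738-57754837 (minus strand) and Col8a2 at chr4:126286693-126286792 (plus strand).
Col10a1: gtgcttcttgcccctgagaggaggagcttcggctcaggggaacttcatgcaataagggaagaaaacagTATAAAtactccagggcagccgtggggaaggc
Col8a1: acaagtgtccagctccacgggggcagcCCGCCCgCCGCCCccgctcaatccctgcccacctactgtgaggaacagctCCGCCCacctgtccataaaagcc
Col8a2: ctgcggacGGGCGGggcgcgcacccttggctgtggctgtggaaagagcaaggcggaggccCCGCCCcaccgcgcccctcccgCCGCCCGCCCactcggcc
The Col10a1 stretch held a TATAAA and no GGGCGG, while both type VIII stretches held GGGCGG on at least 1 strand and no TATAAA.

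Col23a1 marked the contractile sub-cluster s0 and the small s6. It stood at 499 and 410 CPM in s0, with 49.8 and 49.4 in the other stroma (3.08 ± 0.23, adjusted p = 6.5e-13), and at 344 and 292 in s6. In s0, 1 chain was higher and 8 lower, beside 3.79% and 1.16% of all genes tested. Those lower were interstitial chains: Col14a1 at 2.47 and 0.981 fell by 4.92 ± 1.01 (adjusted p = 0.00094), and Col6a3 at 9.86 and 35.3 fell by 3.16 ± 0.52 (adjusted p = 3.9e-05). Col1a1 fell by 2.63 ± 0.80 (adjusted p = 0.038), a call lost under 4 of the alternatives. In s6, 3 chains were higher and 1 lower, beside 1.48% and 1.14% of all genes tested. The higher ones were Col23a1, Col4a5 at 154 and 181 and Col4a6 at 103 and 80.5, which in other stroma were at 38.9 and 36 and at 16 and 20.7. These 3 chains were also high in the non-pigmented layer, though each rested on fewer than 50 UMIs in at least 1 library of s6. Col23a1 was lower in s3 (-2.81 ± 0.46, adjusted p = 6.7e-05) and s5 (-2.41 ± 0.39, adjusted p = 2.5e-05). Sub-cluster s8 had 2 chains higher and 4 lower, beside 3.47% and 1.93% of all genes tested. Those higher were Col4a1 at 546 and 501 (1.86 ± 0.23, adjusted p = 8.7e-08) and Col4a2 at 429 and 446 (1.74 ± 0.24, adjusted p = 9.4e-07).

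The UMIs of partner chains of 1 molecule were not in a fixed ratio across groups. Type I collagen is usually made of 2 Col1a1 chains and 1 Col1a2 chain. A share of UMIs concerns RNA, and capture can differ between genes, so it cannot be set against that protein ratio. The Col1a1 share of the UMIs of both was 52.4% and 51.6% in fibroblasts, 54.5% and 57.4% in s4 and 51.3% and 50.7% in s5. It was lower in s0, at 33.3% and 36.2%, and in s8, at 34.9% and 42.3%, and their exact 95% intervals did not reach those of s4 or s5. These intervals cover counting error only, and the part of background RNA in the shares was not tested. In the non-pigmented layer the share was 38.3% and 9.54%, and the libraries differed from each other beyond counting error. There, 217 of 315 Col1a1 UMIs and 162 of 507 Col1a2 UMIs of library 1 lay in the cell richest in each, and 23 of 39 and 49 of 370 in library 2. The share of Col8a1 among type VIII UMIs spread more widely. It was 73.4% and 81.0% in retinal pigment epithelium, 87.5% and 90.9% in pericytes and 59.2% and 53.8% in s5, but 12.9% and 21.7% in s0 and 18.7% and 11.1% in s4. Over the 9 sub-clusters the Col6a1 share of Col6a1 and Col6a2 ran from 62.3% to 75.9% in library 1 and from 60.6% to 71.7% in library 2. The Col6a1 share of Col6a1 and Col6a3 ran more widely, from 47.8% to 92.2% and from 41.7% to 86.8%.

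**Figure D5:**
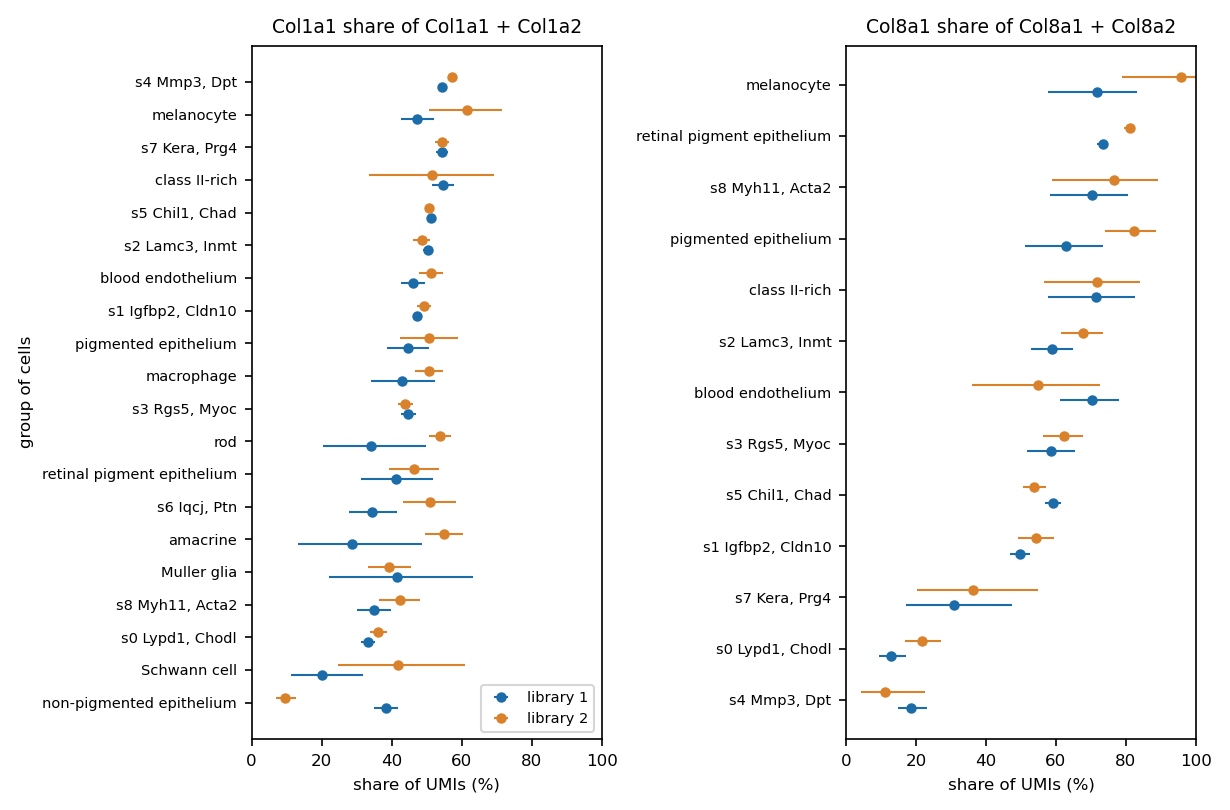
Share of Col1a1 in the UMIs of Col1a1 and Col1a2 (left) and of Col8a1 in those of Col8a1 and Col8a2 (right), by cell class or stromal sub-cluster and library, with exact 95% binomial intervals that cover counting error only. Most stroma lies near 50% for type I, with s0 and the non-pigmented layer below, while type VIII runs from below 20% in s4 to above 70% in retinal pigment epithelium.

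Some chains stood above rods in other retinal neurons. Col6a1 stood at 65.3 and 93.4 CPM in amacrine cells, the inhibitory interneurons of the inner retina, on 56 and 254 UMIs, against 12.2 and 7.27 in rods. Its partners were not raised with it: Col6a2 was at 9.33 and 4.78 and Col6a3 at 0 and 5.51. The Col6a1 share of Col6a1 and Col6a2 was 87.5% and 95.1% there, with intervals of 76.8 to 94.4% and 91.8 to 97.4%, against 68.6% and 68.9% in fibroblasts. The 10 fibroblast markers summed to 70.0 and 234 CPM in amacrine cells and 168 and 262 in rods. Cone bipolar cells, which pass cone signals on, were the highest class for Col7a1, the chain of anchoring fibrils, at 39.3 and 27.5 against 6.09 and 10.4 in rods, though s4 was at 30.5 and 37.9. They were also the highest class for Col17a1, a transmembrane chain of hemidesmosomes, at 23.6 and 12.5 against 0 and 0.441. Col25a1, a transmembrane chain known from neurons, was highest in amacrine cells at 24.5 and 8.09, with 17.1 and 5.81 in the pigmented ciliary layer. Col19a1, a fibril-associated chain, was highest in rods at 8.11 and 15.6, on 4 and 71 UMIs. Col22a1, another fibril-associated chain, had no class with more than 7 UMIs in a library. Col26a1 had its most in s2 of library 1, at 14.0 on 13 UMIs, against 1.37 on 1 UMI in library 2.

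Most listed genes that fold, process and bind collagen were also higher in fibroblasts. In fibroblasts against epithelium, 15 of 22 tested folding and modification genes were higher and 1 lower. Of the processing and cross-linking genes 6 of 10 were higher and 1 lower, and of the receptors 5 of 9 were higher and 2 lower. These stand beside 14.5% of all genes tested called higher and 9.32% called lower. The higher ones included Creb3l1, a transcription factor of collagen secretion (76.0 and 59.4 against 3.26 and 3.77, log2 difference 4.58 ± 0.38), and Adamts2, which removes the procollagen amino end (168 and 102 against 9.79 and 5.03, 4.51 ± 0.36). Lox, a collagen cross-linking oxidase, stood at 183 and 174 against 20.1 and 6.71 (4.01 ± 0.35). The lower ones included Pxdn, which cross-links type IV collagen, at 28.3 and 22.4 against 89.7 and 70.4 (-1.44 ± 0.29), and the receptor Ddr1 at 15.2 and 25.8 against 138 and 145 (-2.63 ± 0.33). Colgalt2, a collagen galactosyltransferase, was at 2.15 and 0.26 against 50.6 and 45.7 (-4.64 ± 0.59). The receptor Ddr2, by contrast, was higher in fibroblasts, at 132 and 107 against 66.9 and 57.8 (1.14 ± 0.28).

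Within the stroma the lists had most calls of a higher level in s5 and s4. In s5, 9 of 22 folding genes and 4 of 10 processing genes were higher and 1 processing gene, Pxdn, was lower. All genes tested had 4.14% higher and 0.97% lower there. In s4 the counts higher were 5 of 22, 6 of 10 and 2 of 8 receptors, beside 5.53% of all genes tested. In s8, 5 of 22 folding genes, 3 of 10 processing genes and 1 of 8 receptors were lower, beside 1.93%. There 1 folding gene and 2 receptors were higher, beside 3.47%. In endothelium against fibroblasts 13 of 22 folding genes were lower and 1 higher, and 6 of 10 processing genes were lower. Of 9 receptors, 3 were lower and 2 higher. All genes tested had 7.73% lower and 6.77% higher in that comparison. Sparc, a collagen-binding matricellular protein, was at 23504 and 15297 CPM in s5 and 9171 and 3375 in the other stroma (2.61 ± 0.45).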

How the data were processed

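The deposited values were raw UMI counts per gene and barcode, made with Cell Ranger 3.1.0 per the file headers. CASAVA 1.8, Cell Ranger, Seurat and the build mm10 stand in the submitters' processing notes. Whether counting used strand is not given in the sources used here. The 2 libraries held 22510387 and 30683405 UMIs.

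The members and lists were chosen with earlier results of these data known. Barcodes under 500 genes or with over 30% of UMIs from mitochondrial genes were dropped. Genes were split at random (seed 1): 16748 genes, including all markers, served clustering, and 16708, including all collagen and pathway genes, were held out for tests. Clustering used scanpy 1.11.5 (2000 variable genes, 30 components, 15 neighbours, Leiden resolution 1, and 0.5 for stroma). The rule that names clusters was changed after clusters were seen (3 versions), as was the scaling within libraries for stroma, and the merging of 4 stromal clusters into 1 fibroblast class. No doublet caller was run. Doublets were addressed by leaving out cells above the 95th percentile of UMIs.

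UMIs were summed per class and library, for classes with at least 20 cells in each, and tested with edgeR 4.0.16 (quasi-likelihood, TMM, filterByExpr, library as block), with Benjamini-Hochberg adjustment over all held-out genes tested. The 2 libraries' classes come from the same pools, which is where the pairing comes from. Each library being 1 pool, p-values measure only the spread between these sums. Fibroblasts were compared with the mean of the log levels of both ciliary layers, and each stromal sub-cluster with the mean of the others. On simulated data for endothelium against fibroblast (6986 genes), 96% of 100 genes changed 4-fold and 20% of 100 changed 2-fold were recovered. Of 119 calls, 3 were unchanged genes. In the simulation all other genes had the same level in both classes, and every gene had the same spread. The changed genes were picked from those with enough expected counts. The real classes differ in many more genes, so these rates need not hold for the real comparisons. Every member is named. Full statistics are for called members with at least 50 UMIs in the higher group of each library, at most 6 in each direction, and for pathway genes at most 4. Intervals and floors of 3 UMIs cover counting error only. DESeq2 1.42.0 was an alternative.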

Additional observations from a re-analysis of the deposited data

Results flagged for a closer look

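Sub-cluster s7 (Kera, Prg4), with 27 and 17 cells, had too few cells to enter the comparisons, yet 4 chains reached their highest stromal level there in both libraries. Col1a1 stood at 17062 and 20496 CPM, above s4 at 16164 and 16756, and Col1a2 at 14297 and 17194, above s4 at 13491 and 12460. Col16a1 stood at 637 and 1235, above s5 at 497 and 595. Col14a1 stood at 569 and 772, above s4 at 519 and 551. None of these differences was tested.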

How the results depend on the processing

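Of 117 calls of single chains with full counts, 81 held under every alternative that gave a test and 36 were lost under at least 1. All such calls of fibroblasts against epithelium and of endothelium against fibroblasts held. Of the contractile class, the count higher went from 1 to 2 at a mitochondrial limit of 15%, without cells above the 95th percentile of UMIs and at Leiden resolution 2. Its count lower went from 11 to 6 with DESeq2 and to 4 at both the 15% limit and resolution 2. In these settings the class held other cells: 76 of its 89 cells lay in s8 at the 15% limit, against 31 of 423 otherwise. There the Col23a1 difference turned to -1.34 (15% limit), -1.72 (95th percentile) and -1.21 (resolution 2), and that of Col10a1 to 0.12 (15% limit). With at least 1000 UMIs per cell no such class was found, so that comparison was not run. The Schwann count lower went from 11 to 7 with DESeq2 size factors and to 5 with the DESeq2 test. Non-pigmented against pigmented epithelium had 2 higher in place of 1 with no low-count filter and without cells above the 95th percentile, and 0 lower in place of 3 with DESeq2, where 4 were lower at an unadjusted p under 0.05. The stromal count lower went from 20 to 40 with no low-count filter. The cause of the moves in the Schwann, epithelial and stromal counts was not tested.

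Without the replicate block, the Schwann count lower was 7 in place of 11 and the epithelial count lower 1 in place of 3. The stromal counts were 41 and 17 in place of 44 and 20, and fibroblasts against epithelium kept 19 and 3. Leaving out either library leaves 1 sum a group and so no test. Of the 117 differences, 0 turned sign in the library that remained. That library's own difference lay further from the fitted one than the spread between libraries for 82 without library 1 and 57 without library 2. It was computed with 2 UMIs added and without the normalization of the fit. These 2 counts therefore reflect the change of estimate, most easily where the libraries were close, and do not measure stability to losing a library. Depth limits the Schwann cells and pericytes most, where 3 UMIs in library 2 were 34.6 and 48.7 CPM.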

Other observations

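Some high values in cells not known for collagen rested on single cells. In neutrophils of library 1, Col1a1 stood at 2448 CPM, with 174 of its 177 UMIs in 1 cell, and at 48.6 without it. In the antigen-presenting cells rich in class II genes, 254 of 549 Col1a1 UMIs of library 1 lay in 1 cell, and in macrophages of library 2, 41 of 92 Col14a1 UMIs did. Without those cells Col1a1 was at 472 in the first and Col14a1 at 33.1 in the other.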
